A study of Rattus norvegicus with 9 samples.

Results

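Tubulins are the alpha and beta subunits that pair into dimers and polymerise into microtubules, the tracks for intracellular transport and the fibres of the mitotic spindle. Mammals have several alpha and several beta genes whose proteins, called isotypes, are very alike and mix in the same microtubule. Cells also adjust tubulin messenger RNA to the pool of free dimers: in human cells excess dimers lead to decay of the messages while they are being translated. The tubulin genes considered here are the rows of the deposited expression table whose symbol starts with Tuba or Tubb, which makes 6 of 2392 genes. The 5 described are the alpha genes Tuba1c (ENSMUSG00000043091) and Tuba4a (ENSMUSG00000026202) and the beta genes Tubb4b (ENSMUSG00000036752), Tubb6 (ENSMUSG00000001473) and Tubb4a (ENSMUSG00000062591). Other isotypes, such as Tuba1a, Tuba1b and Tubb5, were not analysed here.

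The samples were cultures of 4T1, a mouse mammary carcinoma cell line, grown in high-glucose medium with serum and antibiotics and no additive (Control), with molybdenum disulfide nanoparticles (MoS2), or with these particles under near-infrared irradiation (MoS2_NIR), and there were 3 libraries of polyadenylated RNA per group. Molybdenum disulfide turns near-infrared light into heat. No group received light without particles, and the labels give neither a particle dose nor an exposure time nor a light intensity. The labels name the rat as organism, whereas the cell line, the genome build and the gene identifiers are those of the mouse.

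The table gives 1 standardized score per gene and library, so the values below are those recovered from the scores, in a unit that is not stated. Libraries of 1 group had Pearson correlations of at least 0.975 across the 1750 genes tested, which are those that reached a value of 1 in 3 or more libraries. The table is a selection by the authors under a rule that is not stated, and 1475 of the tested genes had group means that differed by a factor of 2 or more. Over all tested genes the median log2 difference was 0.16 for MoS2 against Control, 1.01 for MoS2_NIR against Control and 0.68 for MoS2_NIR against MoS2. Of the 10 epithelial and carcinoma markers checked, 2 were in the table, the lipocalin gene Lcn2 and the osteopontin gene Spp1, with Control means of 399 and 1242; in MoS2_NIR Lcn2 was at 98.9 and Spp1 between 528.22 and 581.95. The fibroblast markers Col1a1 and Postn had means of 0.717 and 4.23 in Control and 0.32 and 0.523 in MoS2_NIR, and 0 of 7 immune and 0 of 6 neuronal markers were among the genes analysed. The part of these markers in the tubulin results was not tested. A marker outside this selected table may still have been expressed. The RNA came from whole cultures, so fewer cells of a type and less RNA per cell cannot be told apart.

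The tubulin family was chosen by the recovered values of Tuba1c and Tubb4b in these 9 libraries: both had been seen to be high with MoS2 against Control, and Tuba1c also with MoS2_NIR, when all genes were compared. Their values are therefore a description, with no test. Tuba4a and Tubb6 entered through their names, and limma tests over all 1750 genes are given for them. These p-values remain bound to a table of genes picked for this deposit, and tubulin genes are alike enough that reads may be shared between copies.

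Tuba1c, an alpha isotype made in many tissues, had values of 59.75, 58.88 and 60.51 in the 3 Control libraries. It stood at 145.86, 152.83 and 159.23 with MoS2, and at 499.11, 463.92 and 436.42 with MoS2_NIR. The 3 groups did not overlap, and every library with light lay above every library without it. The deposited scores behind these values run from -1.20 to 1.34. The group means were 59.7 ± 0.816, 153 ± 6.69 and 466 ± 31.4 (SD, n = 3 each), which is 2.56 times the Control mean with particles and 7.81 times with particles and light. On the log2 scale the difference was 1.34 for MoS2 against Control, rank 9 of 1750 from the top, and 2.94 for MoS2_NIR against Control, rank 6.

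Tuba4a encodes an alpha isotype whose protein, unlike most alpha-tubulins, ends without the terminal tyrosine. Its values were 47.32, 52.43 and 47.60 in Control, 106.06, 99.99 and 119.70 with MoS2, and 191.90, 177.52 and 185.87 with MoS2_NIR. The groups were again fully separate, with the widest spread in MoS2. Tuba4a rose with particles from 49.1 ± 2.87 to 109 ± 10.1 (SD, n = 3 each), a log2 difference of 1.13 with an SE of 0.09 and a limma adjusted p of 5.64e-05. It reached 185 ± 7.22 with light, a log2 difference from Control of 1.89 (SE 0.09, limma adjusted p = 7.68e-08). Against MoS2 the increase was 0.77 on the log2 scale (SE 0.09, limma adjusted p = 2.86e-05), but it was -0.038 after median-ratio scaling (limma adjusted p = 0.717).

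Tubb4b, the widely made class IVb beta isotype, was at 100.43, 110.85 and 101.24 in Control. Its values were 223.19, 229.42 and 241.80 with MoS2 and 539.45, 504.11 and 466.99 with MoS2_NIR. As for Tuba1c, no library of one group fell within the range of another. The means of 104 ± 5.80, 231 ± 9.47 and 504 ± 36.2 (SD, n = 3 each) give ratios to Control of 2.22 and 4.83. Its log2 difference from Control ranked 12 of 1750 with particles and 27 with particles and light.

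Tubb6 encodes the class V beta isotype, which loosens the microtubule network of cultured hamster cells when made in excess. It was at 86.46, 83.01 and 85.19 in Control, 139.86, 132.47 and 137.33 with MoS2, and 294.46, 235.84 and 224.66 with MoS2_NIR. The groups did not overlap, and replicate 1 stood above the other irradiated libraries. Tubb6 rose from 84.9 ± 1.74 to 137 ± 3.76 with particles (SD, n = 3 each), a log2 difference of 0.68 with an SE of 0.10 and a limma adjusted p of 0.000926. With light it reached 252 ± 37.5, or 1.55 above Control on the log2 scale (SE 0.10, limma adjusted p = 2.49e-07) and 0.87 above MoS2 (SE 0.10, limma adjusted p = 2.49e-05). The last difference shrank to 0.06 after median-ratio scaling (limma adjusted p = 0.64).

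Tubb4a, a beta isotype made mainly in the nervous system, was low and was not tested. It was at 0.42, 0 and 0.19 in Control, 0.35, 0.66 and 0.77 with MoS2, and 1.82, 1.41 and 0.78 with MoS2_NIR. All 3 irradiated libraries were above the other 6, whereas Control and MoS2 overlapped.

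**Figure D1:**
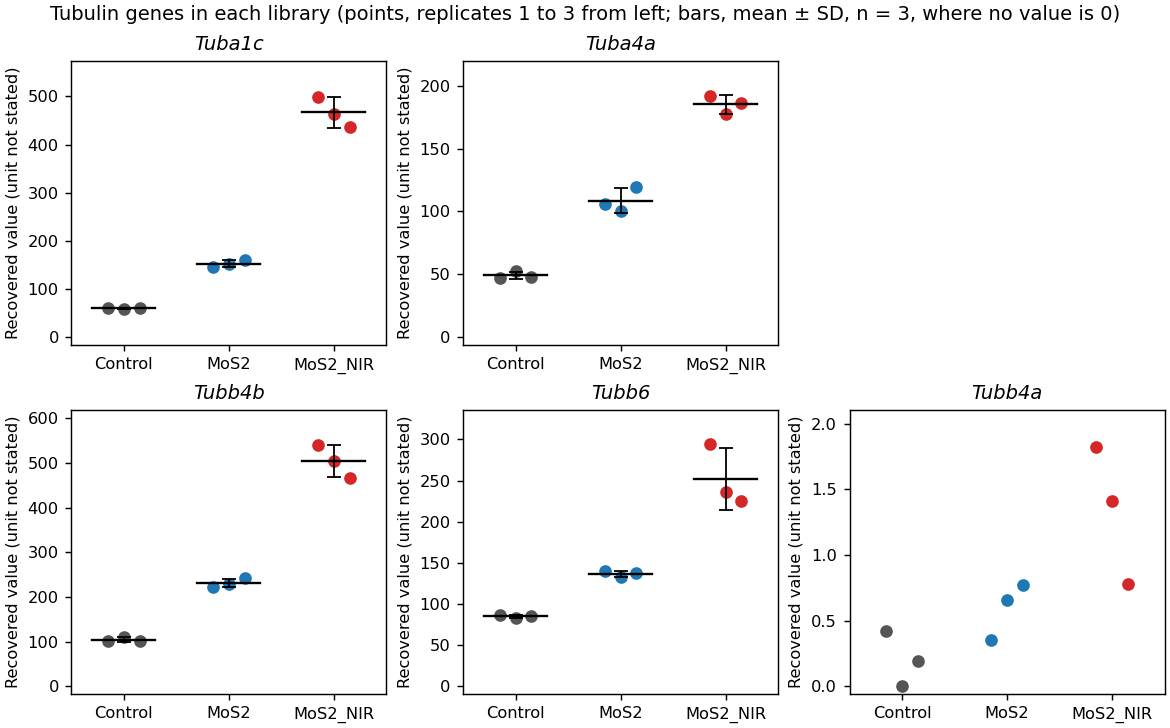
Recovered values (vertical axis, unit not stated) of the 5 tubulin genes described in the 9 libraries, with points for replicates 1 to 3 from left to right in each group and bars for the mean ± SD (n = 3) of genes with no value of 0. The 4 genes in the left and middle panels are separated by group, from 59.7 to 466 for the means of Tuba1c, while Tubb4a stays below 2.

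Counted together, the 2 tested members that had not prompted the choice were both called higher in each comparison, and 0 were called lower. Of all tested genes, 30.1% were called higher and 16.7% lower for MoS2 against Control, 63.4% and 33.8% for MoS2_NIR against Control, and 61.6% and 25.4% for MoS2_NIR against MoS2. For the same 2 genes, Tuba4a and Tubb6, the 3 values of the first-named group lay above those of the other in every comparison, beside 36.7%, 63.4% and 61.6% of all tested genes. They lay below in 0 of the 2, beside 20.6%, 33% and 25.7% of all tested genes. Most of the 1750 tested genes were called higher with light, and the counts with light are to be read against those shares. Replicate 1 of MoS2_NIR was the highest of its group in all 4 tested members, and it also had the highest median-ratio scaling factor of the 9 libraries, 1.62.

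Scaling bears on the step from MoS2 to MoS2_NIR. Median-ratio scaling, which assumes that most genes of a table do not change, divided the Control libraries by 0.638 to 0.759, the MoS2 libraries by 0.872 to 0.918 and the MoS2_NIR libraries by 1.54 to 1.62, and moved the median of all tested genes to -0.04, 0.16 and 0.03 in the 3 comparisons. The split of calls moved with it, from 526 higher and 293 lower to 231 and 544 for MoS2 against Control, from 1110 and 592 to 613 and 636 for MoS2_NIR against Control, and from 1078 and 444 to 417 and 613 for MoS2_NIR against MoS2. In the step with particles Tuba4a and Tubb6 stayed above Control after this scaling, with log2 differences of 0.80 and 0.35. Tuba1c and Tubb4b, chosen for high values in this step, were at 1.01 and 0.82, which is a description. In the step with light, Tuba1c stayed 0.80 and Tubb4b 0.31 above MoS2, while Tuba4a and Tubb6 were near 0. Quantile normalization left the light step of Tuba4a at 0.84 and that of Tubb6 at 0.97. The assumption of median-ratio scaling is doubtful for this table. As recovered, 1475 of the 1750 tested genes had group means that differed by a factor of 2 or more. Which values of the light step are the right ones was not tested.

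The members differed in how much of their whole log2 change was already present with particles alone. The share was 45.5% for Tuba1c, 59.5% for Tuba4a, 50.6% for Tubb4b and 43.9% for Tubb6. The median over the 1110 genes called higher for MoS2_NIR against Control was 28.3%. Tuba1c and Tubb4b had been chosen for high values with MoS2, which favours a large share, so nothing is read from their place against this median. After median-ratio scaling the shares were 56%, 105%, 72.7% and 85.3% in the same order, beside a median of 34.6% over the 613 genes then called. After quantile normalization they were 47.1%, 57.2%, 55.2% and 43.4%, beside a median of 40.9% over 1001 genes, which leaves Tubb6 near the median. These comparisons share their Control libraries, and the difference between members was not tested.

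**Figure D2:**
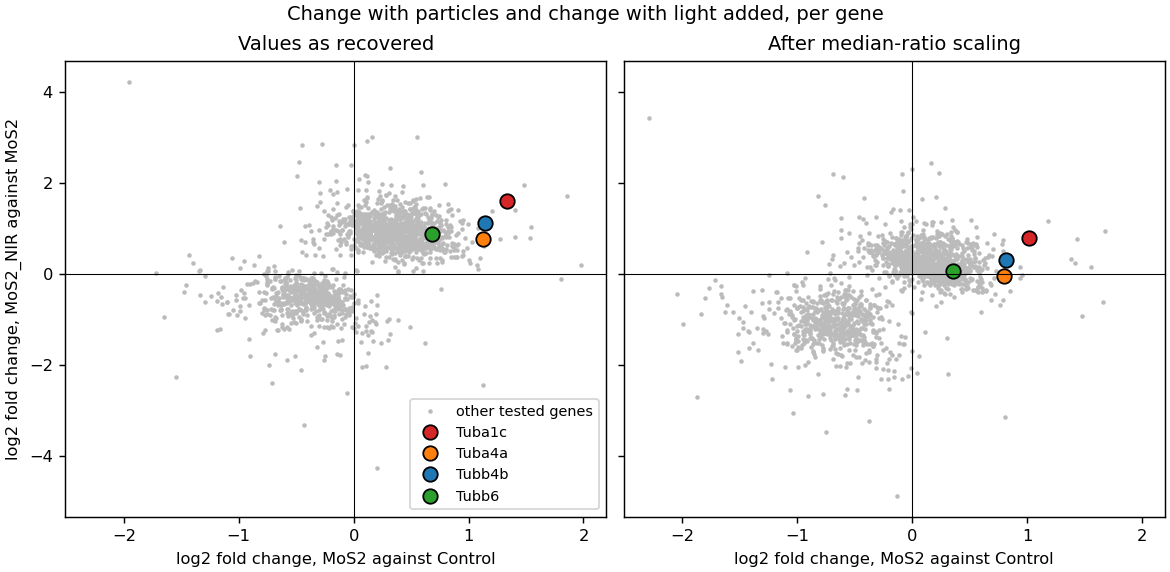
Log2 fold change for MoS2 against Control (horizontal) and for MoS2_NIR against MoS2 (vertical) of each tested gene, with values as recovered (left) and after median-ratio scaling (right). The 4 coloured tubulin genes lie to the right of 0 in both panels, while Tuba4a moves from 0.77 to -0.04 on the vertical axis. Tuba1c and Tubb4b were chosen for high values with MoS2, which favours a place to the right.

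Ratios between members within 1 library do not depend on scaling between libraries. Tuba1c and Tubb4b were chosen for high values in these libraries, and Tuba4a and Tubb6 entered by name. That choice favours rising ratios of the former to the latter, so the ratios are a description. The ratio of Tuba1c to Tuba4a was 1.26, 1.12 and 1.27 in Control, 1.38, 1.53 and 1.33 with MoS2, and 2.60, 2.61 and 2.35 with MoS2_NIR. The alpha pair thus shifted towards Tuba1c mostly between MoS2 and MoS2_NIR, where the ratio went from 1.41 ± 0.104 to 2.52 ± 0.15 (SD, n = 3 each). The ratio of Tubb4b to Tubb6 was 1.16, 1.34 and 1.19 in Control, 1.60, 1.73 and 1.76 with MoS2, and 1.83, 2.14 and 2.08 with MoS2_NIR. Here the larger part of the shift, from 1.23 ± 0.0936 to 1.70 ± 0.0881, came between Control and MoS2.

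Between the alpha gene Tuba1c and the beta gene Tubb4b the libraries of a group were closest to each other. Their ratio was 0.595, 0.531 and 0.598 in Control, 0.654, 0.666 and 0.659 with MoS2, and 0.925, 0.920 and 0.935 with MoS2_NIR. The ratio of Tuba4a to Tubb6 separated Control (0.579 ± 0.0457) from the other groups, but MoS2 and MoS2_NIR overlapped at 0.795 ± 0.0664 and 0.744 ± 0.0881. Tuba1c made up 54.9% ± 1.73, 58.5% ± 1.76 and 71.6% ± 1.24 of the summed values of the alpha genes Tuba1c and Tuba4a in Control, MoS2 and MoS2_NIR (SD, n = 3 each). Tubb4b made up 55.0% ± 1.90, 62.8% ± 1.20 and 66.7% ± 1.85 of those of the beta genes Tubb4b, Tubb6 and Tubb4a. Whether the values are per length is not known, so the ratios and shares show shifts between groups, not the relative number of messages. The choice of Tuba1c and Tubb4b for high values also favours rising shares of these genes, so the shifts were not tested.

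**Figure D3:**
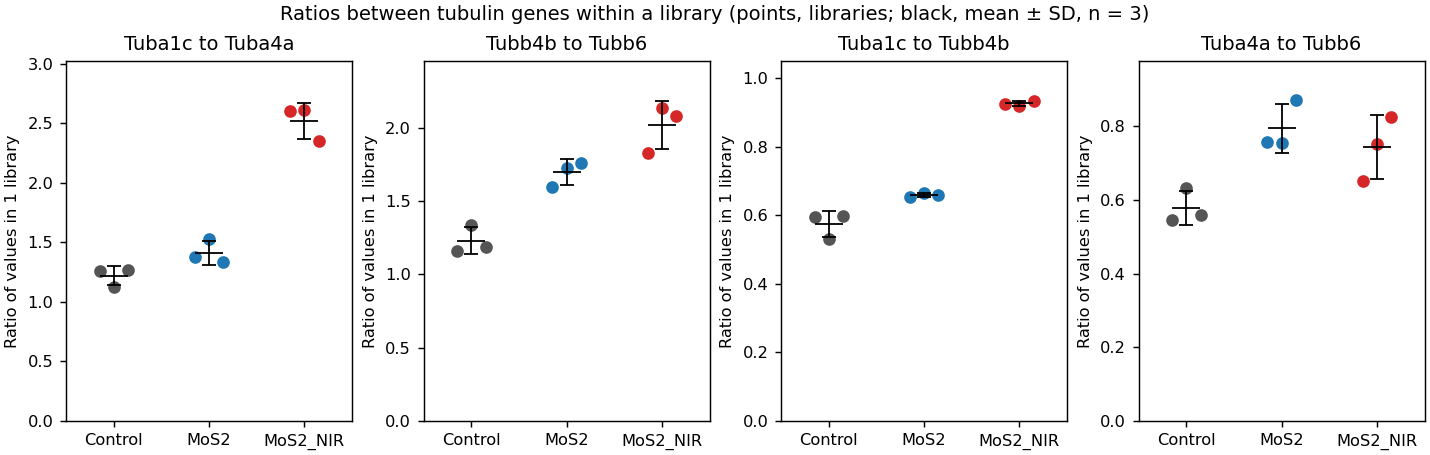
Ratio of the values of 2 tubulin genes in the same library (vertical axes, starting at 0), with points for libraries and black bars for the mean ± SD (n = 3). Tuba1c gains on Tuba4a, from 1.22 in Control to 2.52 in MoS2_NIR, and on Tubb4b, from 0.575 to 0.927, while the ratio of Tuba4a to Tubb6 overlaps between MoS2 and MoS2_NIR. Tuba1c and Tubb4b were chosen for high values in these libraries, which favours such gains.

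By the size and course of the change over the 9 libraries, the genes most like Tuba1c among 803 named genes with a mean of at least 5 were Fosl1 (a transcription factor of the AP-1 family), Fam83h, Tubb4b, Adamts1 (a secreted protease) and Fam83d. Their centred log2 profiles differed from that of Tuba1c by a root mean square of 0.275, 0.278, 0.29, 0.307 and 0.331. Tuba4a and Tubb6 stood at ranks 36 and 114 of this order, at 0.46 and 0.574. Among the genes most like Tubb4b were Cxcl5 (a chemokine), Grwd1, Fen1 (a DNA flap nuclease) and Adamts1, at 0.136, 0.15, 0.172 and 0.174. Cxcl5, for example, went through 54.9 ± 3.71, 106 ± 1.56 and 233 ± 34.1 in Control, MoS2 and MoS2_NIR (SD, n = 3 each), with ratios to Control near those of Tubb4b. Tuba4a followed at rank 7 with 0.181, ahead of Tuba1c at rank 53 and Tubb6 at rank 71. Tuba4a, Tuba1c and Tubb6 were thus not among the 5 nearest to Tubb4b. The order was made with 1 added to each value, which matters for low genes. Grwd1, for instance, had a log2 difference for MoS2_NIR against Control of 2.34 with 0.1 added and 1.46 with 5 added. The order was not repeated with other constants or after scaling. Tubb4b stood at rank 3 for Tuba1c, but both had been chosen for high values with MoS2 in these libraries. That choice favours alike profiles, so nothing is read from this rank.

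Few other genes of microtubule biology were in the table. Of 267 genes in 9 lists 13 were present and 11 tested, and the lists of gamma-, delta- and epsilon-tubulin (4 genes), of tubulin folding (27) and of tubulin-modifying enzymes (32) had 0 members, as did a list of 26 mitosis genes. Of the 11 tested genes 3 were called higher and 2 lower for MoS2 against Control. For MoS2_NIR against Control, and also against MoS2, 8 were called higher and 3 lower. Of all tested genes, 30.1%, 63.4% and 61.6% were called higher in the 3 comparisons, and 16.7%, 33.8% and 25.4% lower. The 11 genes had median log2 fold changes of 0.25, 1.07 and 0.69, close to the 0.16, 1.01 and 0.68 of all tested genes.

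Of 12 listed genes for the decay of tubulin messages 2 were measured, and with light they went in opposite directions. Scaper, whose protein in human cells links the ribosome that makes tubulin to the deadenylase, was at 11.73, 11.40 and 10.50 in Control, 8.06, 7.40 and 6.08 with MoS2, and 4.78, 3.83 and 4.60 with MoS2_NIR. It fell without overlap at each step (log2 fold change -0.58 with particles and -1.18 with particles and light, limma adjusted p = 0.00457 and 4.2e-06). Cnot11, the subunit through which SCAPER binds the CCR4-NOT deadenylase, was at 4.85, 4.68 and 3.61, then at 5.14, 4.87 and 6.0, and at 11.73, 12.01 and 12.05 with light. It rose with light (log2 difference from MoS2 1.03, limma adjusted p = 2.49e-05) and was not called with particles alone (0.24, limma adjusted p = 0.122). Ttc5, the factor that recognises newly made tubulin, was not analysed here. Whether these levels bear on the tubulin messages was not tested.

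Among genes for severing and shortening microtubules, Fignl1, a relative of the severing enzyme fidgetin best known for its part in DNA recombination, rose from 3.87 ± 0.425 to 6.97 ± 0.385 and 13.9 ± 1.51 (SD, n = 3 each; limma adjusted p = 0.00132 for MoS2 and 3.86e-07 for MoS2_NIR against Control). Katnbl1, a regulator of the severing enzyme katanin, rose to 12.6 ± 0.219 with light from 4.32 ± 1.15 in Control (log2 fold change 1.37, limma adjusted p = 1.17e-05; 0.37 and 0.068 after median-ratio scaling). Kif24, a centriolar kinesin that shortens microtubules, went from 2.23 ± 0.45 to 3.45 ± 0.412 and 4.88 ± 0.774. Its call for MoS2 against Control (log2 fold change 0.47, limma adjusted p = 0.0237) ended without Control replicate 2 (0.0761), MoS2 replicate 1 (0.0793) or MoS2 replicate 3 (0.0642), and its call for MoS2_NIR against MoS2 (0.40, limma adjusted p = 0.0251) ended without MoS2 replicate 2 (0.0915) or MoS2_NIR replicate 1 (0.105).

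Of the genes for microtubule-binding proteins, Gtse1, which acts in the G2 phase and the spindle, rose from 10.2 ± 1.52 to 20.3 ± 1.26 with particles (log2 fold change 0.94, limma adjusted p = 0.000369) and to 27.0 ± 0.69 with light (SD, n = 3 each; 1.34 against Control, limma adjusted p = 1.04e-06). Its light step was 0.40 (limma adjusted p = 0.00703). After median-ratio scaling this step was -0.38 and called lower (limma adjusted p = 0.00374). Dclk1, a kinase with doublecortin domains, fell from 3.40 ± 0.0751 to 1.82 ± 0.563 and 1.11 ± 0.227 (limma adjusted p = 0.00645 and 4.34e-05 against Control). Its call for MoS2_NIR against MoS2 (-0.40, limma adjusted p = 0.0276) ended without MoS2 replicate 1 (0.127) or MoS2_NIR replicate 1 (0.102). Mtus1 and Tppp3 were low and untested: Mtus1 was at 0.06, 0.04 and 0.13 with light against 0.36, 0.71 and 0.38 in Control, and Tppp3 at 1.25, 0.65 and 1.04 against 0.19, 0.03 and 0.17.

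Among motor and centrosome genes, Klc2, a kinesin light chain, was at 16.9 ± 3.0 in Control, 21.1 ± 1.71 with MoS2 and 38.6 ± 4.09 with MoS2_NIR (log2 difference from Control 1.15, limma adjusted p = 9.3e-06). Its difference between MoS2 and Control was not called (0.31, limma adjusted p = 0.0755; 0.0232 without Control replicate 2). The motor gene Kif17 rose from 0.953 ± 0.0929 to 3.01 ± 0.13 with light, and the centrosomal gene Ninl from 3.47 ± 1.42 to 8.11 ± 0.56 (limma adjusted p = 0.000258 and 0.0003). Ninl was not called with particles alone (limma adjusted p = 0.129; 0.0164 without Control replicate 1). Dync2li1, of the dynein that runs in cilia, fell from 1.31 ± 0.325 to 0.61 ± 0.176 (limma adjusted p = 0.00388). After median-ratio scaling 5 of the 8 increases over Control were no longer called, those of Katnbl1, Kif24, Klc2, Kif17 and Ninl (limma adjusted p = 0.665, 0.162 and 0.531 for the last 3), whereas Cnot11, Fignl1 and Gtse1 were. Against MoS2, the increases of Fignl1 (0.16, limma adjusted p = 0.26), Katnbl1 (0.40, 0.0632), Kif17 (0.35, 0.145) and Klc2 (0.054, 0.699) also lost their call with this scaling. Those of Kif24 (-0.24), Ninl (-0.0032) and Gtse1 (-0.38) turned below 0.

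Outside the microtubule lists, 4 of 41 genes of other cytoskeletal systems were in the table. Tpm2, a tropomyosin of actin filaments, fell from 10.1 ± 1.19 to 4.07 ± 1.04 with particles and 2.21 ± 0.465 with light (limma adjusted p = 0.000839 and 1.8e-06). Lmnb1, the gene of lamin B1 in the nuclear envelope, rose from 24.5 ± 6.02 to 37.6 ± 1.21 and 56.1 ± 1.82 (limma adjusted p = 0.00836 and 1.89e-05 against Control; 0.503 for the latter after median-ratio scaling). The actin-bundling gene Tagln and the keratin gene Krt14 were too low to be tested, with highest values of 0.56 and 1.13.

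**Figure D4:**
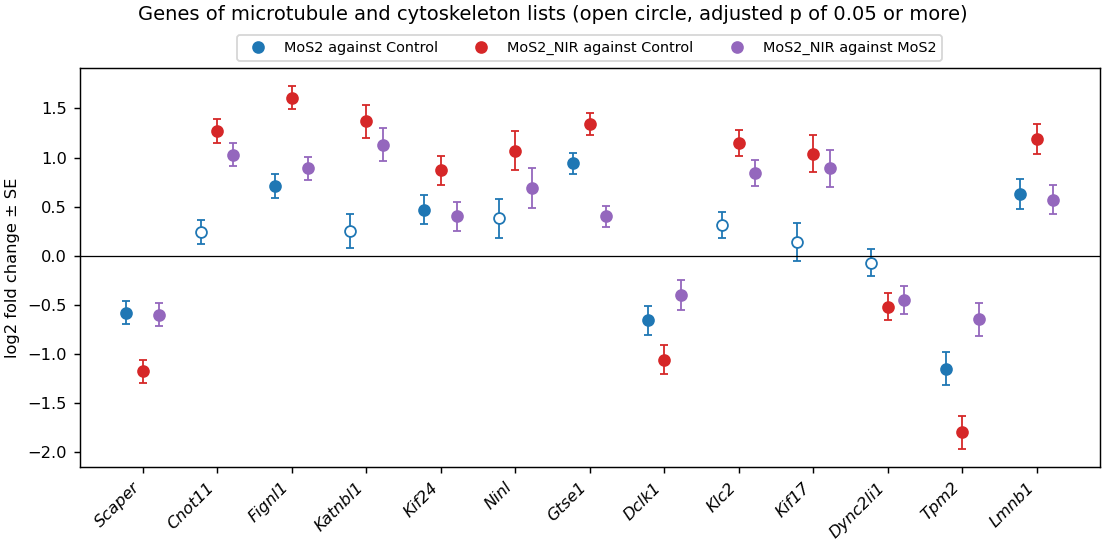
Log2 fold change ± SE (vertical axis) of the 13 tested genes of the microtubule lists and of other cytoskeletal systems in the 3 comparisons, with open circles for an adjusted p of 0.05 or more. Scaper, Dclk1, Dync2li1 and Tpm2 lie below 0 with light, and the other 9 genes above it.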

How the data were processed

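Polyadenylated RNA of 9 libraries, 3 per group, was sequenced. Groups and replicate numbers are those of the sample titles. The build mm10 and the tools HTSeq, Cufflinks 2.1.1 and Bowtie 0.12.9 are named in the submitters' processing notes without a step, and the strand setting is not given in the sources used here. The authors deposited 1 score per gene and library, standardized over the 9 libraries to a mean of 0 and an SD of 1. Values were recovered as the 9 numbers with a step of 0.01 whose natural log, after adding 1, gives the scores within 1e-09. This worked for 2389 of 2392 genes; solutions expected by chance were at most 0.000533 per gene, and 4.31e-25 for a tubulin gene. For 9 genes, of which Tagln is the only one named here, the scale is uncertain by a whole-number factor. Depth is unknown, so no counting interval is given.

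Log2 (value + 1) of 1750 genes was fitted with limma 3.58.1 in R 4.3.3 (trend, robust, 6 residual degrees of freedom), without scaling between libraries. Adjusted p-values are Benjamini-Hochberg values over these genes, called under 0.05. Both steps were tested on simulated data. The design had allowed for scores or a named unit. The 17 alternatives cover pseudocounts, filter, scaling, trend, fitted groups, replicate block and single libraries. Of the members 5 are named, 1 is not reported here; the members of short lists are named, with genes among the 5 nearest by profile. Members and lists were chosen with earlier results of these data known. Whether the libraries of a group stem from separate cultures is not stated, and p-values then measure only the spread between these samples, which may be technical.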

Additional observations from a re-analysis of the deposited data

How the results depend on the processing

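Across the 17 alternatives the log2 differences of the 4 tested tubulin genes kept their sign, except Tuba4a for MoS2_NIR against MoS2 after median-ratio scaling (-0.038). For Tuba1c and Tubb4b, chosen for high values in these libraries, this is a description. Leaving out single libraries gave 1.05 to 1.18, 1.87 to 1.94 and 0.71 to 0.84 for Tuba4a in the 3 comparisons, and 0.66 to 0.70, 1.43 to 1.62 and 0.75 to 0.94 for Tubb6, with a highest limma adjusted p of 0.00523. The count of members called higher for MoS2_NIR against MoS2, 2 as reported, was 0 after median-ratio scaling. Without a filter Tubb4a was also called higher with light (limma adjusted p = 0.000624 against Control and 0.0223 against MoS2). Its values were at most 1.82, and it was not tested after scaling. Counts of all genes called moved after median-ratio scaling to 231 higher and 544 lower for MoS2 against Control, 613 higher for MoS2_NIR against Control and 417 higher for MoS2_NIR against MoS2 (676 after quantile normalization).

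Median-ratio scaling reversed the sign of uncalled log2 changes for MoS2 against Control, to -0.035 for Cnot11, -0.027 for Katnbl1, -0.035 for Kif17 and -0.00055 for Klc2, and that of the called change of Kif24 for MoS2_NIR against Control (-0.0077). For MoS2_NIR against MoS2 it gave -0.38 for Gtse1, -0.24 for Kif24, -0.23 for Lmnb1 and -0.0032 for Ninl, and quantile normalization gave -0.021 for Gtse1 and -0.16 for Kif24. With single libraries left out, the uncalled change for MoS2 against Control ran from -0.18 to 0.027 for Dync2li1 (above 0 without Control replicate 3) and from -0.051 to 0.38 for Kif17 (below 0 without MoS2 replicate 3). The cause of the scaling differences was not tested. Same-numbered libraries had correlations of their deviations from the group means of -0.0806 to 0.0995, so the numbers were not taken as pairs. With the replicate number as a block, 504, 1111 and 1074 genes were called higher in the 3 comparisons and the same counts of 2 tubulin members were called.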
